A study of Mus musculus with 2 samples.

Results

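The genes described here are 10 repressors and cofactors of the globin switch, taken as the rows of the table named Bcl11a, Sox6, Zbtb7a, Nr2c1, Nr2c2, Lin28b, Hbs1l, Chd4, Mta2 and Kdm1a, the current symbol of LSD1. All 10 had a row among the 25791 rows of the table. They were measured by RNA sequencing of ESREs, short for Extensively Self Renewing Erythroblasts, which are mouse red cell precursors able to divide for long in culture. The strain background of both groups is C57/bl6. The expansion group is proliferating ESREs and the maturation group is ESREs after 1 day of maturation. The series title ties the cells to transgenic β-Yac mice, which carry the human β-globin locus on a yeast artificial chromosome, and the sources used here do not give whether the sequenced cells carried it. The table holds 1 value per gene and group, so no value has a replicate error, no test between the groups could be made, and the sequencing depth is unknown.

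During development red cells exchange embryonic for adult hemoglobin, and a small set of DNA-binding repressors silences the early genes. BCL11A and ZBTB7A (also called LRF) are zinc finger proteins that bind globin promoters, SOX6 is an HMG-box protein that acts with BCL11A on the mouse embryonic gene Hbb-y, and the orphan nuclear receptors TR2 (Nr2c1) and TR4 (Nr2c2) bind direct repeats in embryonic globin promoters. These factors recruit enzymes, among them the NuRD complex with its ATPase CHD4 and its scaffold MTA2, and the demethylase LSD1. LIN28B keeps a fetal program by blocking maturation of let-7 microRNAs, and HBS1L, a ribosome rescue factor, lies beside Myb in an interval linked to fetal hemoglobin levels in people.

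Values are FPKM, fragments scaled by transcript length and library size, so levels can be compared between genes. The FPKM of all rows summed to 411084 in expansion against 416690 in maturation, and small RNA rows took 17.6% and 25.5% of it. A row counted as expressed at an FPKM of at least 1 in at least 1 group, which held for 9263 rows. All 8 erythroid markers were expressed, with a summed FPKM of 93.7 in expansion and 246 in maturation. Of these, Slc4a1 (0.0744 and 18.0 FPKM) and Alas2 (0.975 and 7.89) reached the minimum only in maturation. Lymphocyte markers, of interest because BCL11A is also a B cell factor, summed to 0.0301 and 0.0713 FPKM over 6 rows, with Ms4a1 at 0 in both groups, and the 6 macrophage markers to 1.34 and 0.602. The 7 megakaryocyte and mast cell markers summed to 33.7 and 2.46 FPKM. Gp5 (9.63 and 0.438 FPKM), Gp1ba (7.22 and 0.845), Ms4a2 (7.07 and 0.0903), Itga2b (5.15 and 0.996) and Hdc (4.47 and 0.0945) carried nearly all of it. Pf4 and Cpa3 were at 0.0333 and 0.107 FPKM in expansion and both at 0 in maturation. The 6 stem and progenitor markers summed to 24.1 and 2.27 FPKM. Kit (16.8 and 1.40 FPKM) and Gata2 (7.20 and 0.824) carried nearly all of the latter sum, while Cd34, Flt3, Hoxa9 and Meis1 were near 0 in both groups. The part of these 2 marker groups in the values below was not tested. In bulk RNA, fewer cells of a type and less RNA per cell cannot be told apart.

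After 1 day of maturation Sox6 stood at a far higher level, and the other 9 genes were within 1.69-fold of their expansion value. Sox6 was at 0.136 FPKM in expansion against 2.86 in maturation, a 21.0-fold difference. Zbtb7a and Bcl11a were also at a higher FPKM in maturation, by 1.40-fold and 1.06-fold, and the remaining 7 genes were at a lower FPKM, by 1.05-fold (Mta2) to 1.69-fold (Nr2c1). On the log2(FPKM + 1) scale used for counts, which understates differences of weakly expressed genes, 9 of the 10 genes were expressed, and Nr2c1 was below the minimum in both groups. Sox6 was the 1 gene at least 2-fold higher, against 3.13% of all expressed rows, and it passed the minimum only through the group where it is high, so it had to differ. None of the 9 was at least 2-fold lower, against 6.70% of expressed rows. At a threshold of 1.5-fold the counts were again 1 higher, against 6.30% of rows, and 0 lower, against 20.4% of rows. With 9 genes these shares are a description of the 2 columns.

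Most genes in the table had a lower FPKM in maturation. Over all expressed rows the median log2 ratio stood at -0.25, and 74.1% of the rows had a lower FPKM. The median of the 9 expressed genes was also -0.25. Read against the median of all expressed rows, Sox6 lay 2.01 above it, Zbtb7a 0.65 above, Bcl11a 0.33 above, Mta2 0.18 above, Nr2c1 0.03 above, Lin28b 0.01 below, Nr2c2 0.05 below, Hbs1l 0.12 below, Chd4 0.15 below and Kdm1a 0.20 below. The direction of Mta2 turned from -0.06 as deposited to 0.18 after centring and to 0.06 after rescaling without small RNA rows, and that of Nr2c1 turned from -0.21 to 0.03 after centring. Sox6, Zbtb7a and Bcl11a were higher, and Nr2c2, Lin28b, Hbs1l, Chd4 and Kdm1a lower, as deposited and under both of these scalings. After centring, 1 of the 9 was at least 2-fold higher, against 4.53% of rows, and 0 lower, against 3.92%. With a pseudocount of 0.1 the shares of all rows were 4.03% higher and 14.1% lower, with 1 and 0 of the 9 genes. With a pseudocount of 5 they were 1.79% and 1.60%, with 0 and 0 of the 9.

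**Figure D1:**
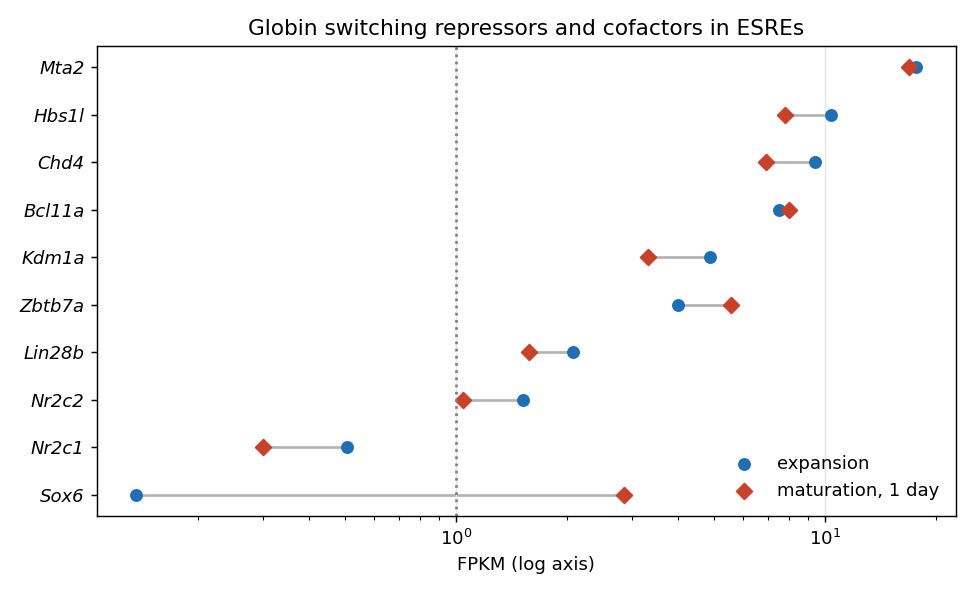
FPKM of the 10 genes in expansion (circles) and after 1 day of maturation (diamonds) on a log axis, ordered by their expansion value, with a dotted line at the minimum of 1 FPKM. Sox6 spans 0.136 to 2.86 FPKM, and the other 9 genes have both points close together, with Nr2c1 left of the line in both groups.

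In order of level in expansion, Mta2 was the highest at 17.7 FPKM, followed by Hbs1l at 10.4, Chd4 at 9.43, Bcl11a at 7.53, Kdm1a at 4.88, Zbtb7a at 3.99, Lin28b at 2.07, Nr2c2 at 1.52, Nr2c1 at 0.507 and Sox6 at 0.136. In maturation Mta2 was again the highest at 16.9 FPKM, and Bcl11a came next at 8.01, ahead of Hbs1l at 7.82 and Chd4 at 6.93. Zbtb7a at 5.58 FPKM stood above Kdm1a at 3.31, and Sox6 at 2.86 stood above Lin28b at 1.58, Nr2c2 at 1.05 and Nr2c1 at 0.300. Whether neighbours in this order differ cannot be judged without a spread between replicates. The median level of the 10 genes was 4.44 FPKM in expansion against 4.45 in maturation, and that of all expressed rows was 4.34 and 3.38. The genes lie on 6 chromosomes, with Zbtb7a, Nr2c1, Lin28b and Hbs1l on chromosome 10, which holds 4.74% of expressed rows.

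**Figure D2:**
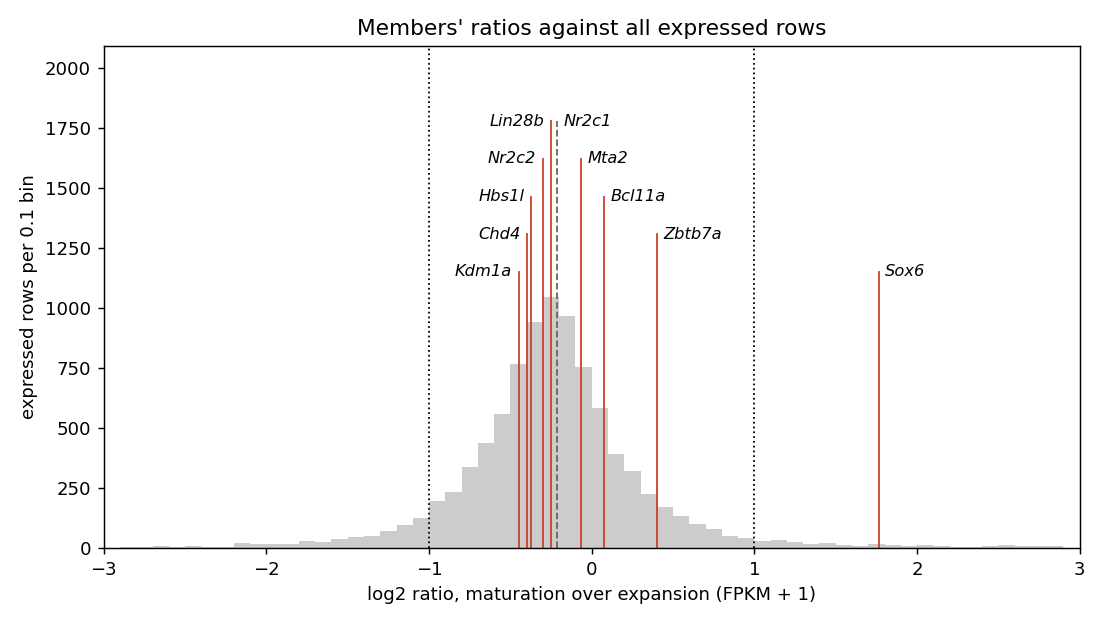
Log2 ratio of maturation over expansion for all expressed rows (grey bars, rows per bin of 0.1) with a line for each of the 10 genes (dashed for Nr2c1, which is below the minimum FPKM), and dotted lines at -1 and 1. Rows beyond 3 in either direction are not drawn. Sox6 lies at 1.76 and Zbtb7a at 0.40, and the other lines lie between -0.45 and 0.08, around the median of -0.25.

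Bcl11a was present at a moderate level in both groups. Its row on chromosome 11 (mm9, 23978056 to 24073558) was at 7.53 FPKM in expansion against 8.01 in maturation, above 67.3% of expressed rows in expansion and 71.7% in maturation. It made up 97.9% of the summed FPKM of the BCL11 family in expansion and 97.7% in maturation, with its paralog Bcl11b, a T cell factor, at 0.161 and 0.185 FPKM. A further row, LOC100503813, is listed at the same locus with 2.12 and 2.75 FPKM, so reads may be divided between them, and the sum of both rows was 9.66 and 10.8 FPKM, a 1.11-fold difference. The annotated antisense gene 4930538E20Rik shares 316 exon bases with Bcl11a, and the sources used here do not give whether the counting used strand. Among all other expressed rows, the 3 nearest to Bcl11a in both groups were Gnpda1 at 7.40 and 7.89 FPKM, Aarsd1 at 7.78 and 8.10, and Gt(ROSA)26Sor at 7.54 and 7.72, by distance in log2(FPKM + 1) over 2 values.

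Zbtb7a stood higher in maturation by a modest amount. Its row on chromosome 10 (mm9, 80599016 to 80614402) was at 3.99 FPKM in expansion against 5.58 in maturation, with a log2 ratio of 0.40, and 9.40% of expressed rows had a ratio at least as high. Relative to Bcl11a it was at 53.0% in expansion and 69.7% in maturation. It made up 74.8% and 82.5% of the ZBTB7 family, where Zbtb7b, a regulator of T cell fate, was at 1.17 and 0.998 FPKM and Zbtb7c at 0.173 and 0.183.

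Sox6 had the largest difference of the 10 genes. Its row on chromosome 7 (mm9, 122614858 to 123182258) spans 567 kb, the longest of the 10 loci. The level was 0.136 FPKM in expansion against 2.86 in maturation, so that it moved from above 0.464% of expressed rows to above 44.8%. Its log2 ratio of 1.76 was reached or passed by 126 of the 9263 expressed rows, or 1.36%. Because Sox6 counts as expressed only through maturation, its ranks in expansion and by ratio were largely fixed by the minimum. Of the expressed rows below 0.2 FPKM in expansion, 19 were not small RNA rows. By maturation FPKM, Sox6 was number 5 of these 19. Relative to Bcl11a it stood at 1.80% in expansion and 35.7% in maturation. Because the expansion value is close to 0, the size depends on the pseudocount, with a log2 ratio of 3.65 at a pseudocount of 0.1 and 0.61 at a pseudocount of 5, where it falls below 2-fold. The other SOXD genes stayed low, with Sox5 at 0.0259 and 0.160 FPKM and Sox13 at 0.0215 and 0.0862, and Sox6 made up 74.1% of the family in expansion and 92.1% in maturation. Of the 8 SOX genes listed, the other expressed one was Sox12, at 2.39 and 1.02 FPKM. The 3 rows nearest to Sox6 in both groups were Apol8 at 0.0282 and 2.56 FPKM, and the small RNA rows Mir705 and Rnu6, which are listed at 0 in expansion and had 2.81 and 2.76 FPKM in maturation.

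The sequences before the start sites of the 3 genes that stood higher in maturation are shown with the letters that factors of the globin switch are known to bind, among them the erythroid activators GATA1 and KLF1 (Gata1 at 18.8 and 37.4 FPKM, Klf1 at 18.7 and 42.7). Each is the 250 bases before a RefSeq start site on GRCm38.p6, a newer build than the mm9 of the table, and all 10 genes matched by symbol. Capitals mark matches on either strand to AGATAA or TGATAA, to CCNCNCCC (a loose form of the CACCC letters that KLF factors bind), to TGACCA (bound by BCL11A) and to AGGTCA (the core bound by TR2 and TR4), and CCNCNCCC matches may overlap each other. For Sox6, which has 6 start sites in RefSeq, the window shown is the 1 of 6 that holds a GATA match, chosen after the search, and the gene value does not tell which start was used.
Bcl11a, chr11:24080445-24080694, plus strand: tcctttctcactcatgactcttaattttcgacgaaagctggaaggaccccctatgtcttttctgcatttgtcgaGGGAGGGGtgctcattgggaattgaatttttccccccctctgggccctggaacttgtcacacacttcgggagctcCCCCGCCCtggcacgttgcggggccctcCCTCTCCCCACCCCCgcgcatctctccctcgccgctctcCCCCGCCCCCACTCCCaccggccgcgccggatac
Zbtb7a, chr10:81136021-81136270, plus strand: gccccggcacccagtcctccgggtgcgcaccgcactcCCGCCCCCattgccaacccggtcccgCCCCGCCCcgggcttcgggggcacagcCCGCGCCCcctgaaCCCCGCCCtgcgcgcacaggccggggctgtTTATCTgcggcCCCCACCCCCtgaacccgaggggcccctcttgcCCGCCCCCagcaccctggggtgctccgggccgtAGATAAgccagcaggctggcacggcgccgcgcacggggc
Sox6, chr7:115846141-115846390, minus strand: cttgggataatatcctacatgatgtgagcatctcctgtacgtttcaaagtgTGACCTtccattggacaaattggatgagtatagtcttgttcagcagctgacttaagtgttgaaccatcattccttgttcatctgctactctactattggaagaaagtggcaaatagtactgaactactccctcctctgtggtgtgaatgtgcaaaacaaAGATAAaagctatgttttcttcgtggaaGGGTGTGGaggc
The Bcl11a window held 8 matches to CCNCNCCC and 0 GATA matches. The Zbtb7a window held 7 matches to CCNCNCCC and 2 GATA matches, which begin 116 and 39 bases before the start. The Sox6 window held 1 GATA match beginning 40 bases before the start, 1 CCNCNCCC match at 12 bases and 1 AGGTCA match at 199 bases. Matches to CCNCNCCC were not particular to the higher genes. Among genes at a lower FPKM in maturation, Hbs1l held 10, the 2 Chd4 windows 3 and 6, Nr2c2 2 and Mta2 1. Nr2c1, Lin28b and Kdm1a held 0. Over the 16 windows of the 10 genes, 4 held a GATA match (Sox6, Zbtb7a, Lin28b and Chd4), against 16.6% of all 32851 RefSeq windows of this length. A CCNCNCCC match stood in 9 of the 16, against 45.9% of all windows, an AGGTCA match in 3 against 14.02%, and a TGACCA match in 0 against 11.4%. A match is a run of letters and not a measured binding site.

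The TR2 and TR4 genes were at low levels, with Nr2c1 below the minimum in both groups, and both had a lower FPKM in maturation as deposited. Nr2c2 on chromosome 6 (mm9, 92041412 to 92134017) was at 1.52 FPKM in expansion against 1.05 in maturation, and Nr2c1 on chromosome 10 (mm9, 93610676 to 93659959) at 0.507 and 0.300 FPKM. Nr2c2 held 74.99% of their sum in expansion and 77.7% in maturation. Nr2c2 was above 12.98% of expressed rows in expansion and above 13.6% in maturation. Mrps25, which encodes a mitochondrial ribosomal protein, is listed at the same locus with 2.30 and 2.14 FPKM and shares 4590 exon bases with Nr2c2 on the opposite strand in the GENCODE annotation, so without strand the reads of the 2 genes cannot be told apart there. Of the 13 listed genes of the TR2 and TR4 assembly, the nuclear receptor corepressors and related receptors, 10 were expressed, and all 10 had a lower FPKM in maturation, as did 74.1% of all expressed rows. None was beyond 2-fold on the log2(FPKM + 1) scale, against 3.13% of rows higher and 6.70% lower, and with a pseudocount of 0.1 Nr2f6 was. Their median log2 ratio was -0.44, against -0.25 for all expressed rows. Trim28, a corepressor found in the assembly, was at 19.2 and 12.8 FPKM, and Dnmt1, the maintenance DNA methyltransferase found with it, at 12.02 and 11.4. Hdac3 was at 6.85 and 4.68 FPKM, Ncor1 at 4.48 and 3.75, Nr2c2ap, which encodes a TR4-associated protein, at 6.66 and 3.64, and the receptor gene Nr2f6 at 1.41 and 0.511, which is 2.76-fold lower as a ratio of FPKM. The 2 COUP-TF genes Nr2f1 and Nr2f2 were below 0.2 FPKM in both groups.

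Of the 14 expressed NuRD genes, 12 had a lower FPKM in maturation and 2, Mbd2 and Rbbp4, a higher one. Mta2 on chromosome 19 (mm9, 9004184 to 9026790) was at 17.7 FPKM in expansion against 16.9 in maturation, above 83.0% and 83.8% of expressed rows. Its listed locus is shared with Eml3 at 4.86 and 4.61 FPKM and LOC100504651 at 1.36 and 1.23. Chd4 on chromosome 6 (mm9, 125046181 to 125080532) was at 9.43 and 6.93 FPKM, which is 1.36-fold lower in maturation. Of 15 NuRD genes, all but Chd5 were expressed, and none was beyond 2-fold on the log2(FPKM + 1) scale, against 3.13% of all expressed rows higher and 6.70% lower. With a pseudocount of 0.1 Chd3 was beyond 2-fold. The median log2 ratio was -0.21, with 8 above and 6 below the median of all expressed rows. Among the alternative ATPases Chd4 held 70.8% of the summed Chd3, Chd4 and Chd5 FPKM in expansion and 80.5% in maturation. Chd3 was at 2.89 and 1.12 FPKM, the largest log2 difference of the list at -0.88. Among the MTA scaffolds Mta2 held 51.8% and 56.1%, with Mta1 at 10.3 and 8.01 FPKM and Mta3 at 6.14 and 5.23. The methyl-DNA binding subunit Mbd2 was at 17.9 and 22.4 FPKM and its alternative Mbd3 at 13.7 and 9.90, so the Mbd2 share of the pair was 56.6% and 69.4%. The histone deacetylase genes Hdac1 and Hdac2, which NuRD shares with other complexes, were at 18.8 and 17.5 FPKM and at 12.8 and 10.9. The histone chaperone genes Rbbp4 and Rbbp7 were at 14.96 and 16.9 FPKM and at 29.5 and 23.3.

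Kdm1a, the LSD1 gene, was lower in maturation. Its row on chromosome 4 (mm9, 136106448 to 136158638) was at 4.88 FPKM in expansion against 3.31 in maturation, 1.47-fold lower, with a log2 ratio of -0.45, and 29.6% of expressed rows had a ratio as low or lower. Of 14 genes of the LSD1-CoREST complex and its GFI1 partners, 12 were expressed, and 11 had a lower FPKM in maturation, against 74.1% of all expressed rows, with a median log2 ratio of -0.24. None was beyond 2-fold on the log2(FPKM + 1) scale, against 3.13% of rows higher and 6.70% lower, and with a pseudocount of 0.1 Zmym3 was. Rcor1, the main CoREST scaffold here, was at 4.43 and 3.82 FPKM, and Kdm1a stood at 110% of Rcor1 in expansion and 86.5% in maturation. Gfi1b, the erythroid repressor that recruits LSD1, was at 19.4 and 16.2 FPKM, and its relative Gfi1 at 1.58 and 1.33. Hmg20b, an HMG-box subunit, was at 4.03 and 2.96 FPKM and Rcor3 at 1.76 and 0.966. Gse1 was the 1 gene of the list at a higher FPKM in maturation, at 2.92 and 5.47, and Zmym3 was at 1.79 and 0.662, which is 2.70-fold lower as a ratio of FPKM.

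**Figure D3:**
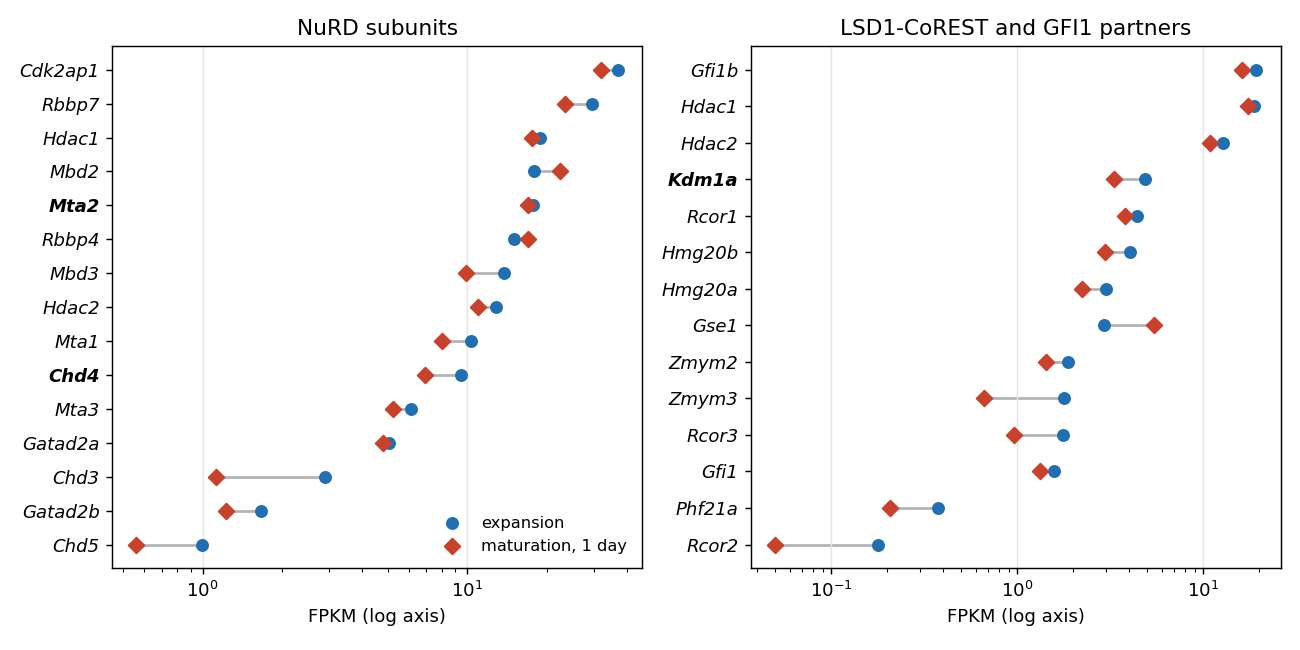
FPKM of the NuRD genes (left) and the LSD1-CoREST genes (right) in expansion (circles) and maturation (diamonds) on log axes, ordered by expansion value, with Mta2, Chd4 and Kdm1a in bold. Most pairs lie close together, with Mbd2, Rbbp4 and Gse1 further right in maturation and Chd3, Zmym3 and the barely detected Rcor2 furthest left of their expansion values.

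Lin28b was detected at a low level in both groups. Its row on chromosome 10 (mm9, 45096425 to 45190007) was at 2.07 FPKM in expansion against 1.58 in maturation, a log2 ratio of -0.25 that equals the median of all expressed rows to 2 decimals. Its paralog, in the table as Lin28, was at 0.0179 and 0.0159 FPKM, so Lin28b held 99.1% and 99.0% of the pair. Of 15 genes of the LIN28 and let-7 axis, 11 were expressed, 1 was at least 2-fold lower and none higher, against 6.70% and 3.13% of all expressed rows, and 10 had a lower FPKM in maturation, against 74.1% of rows. The 2-fold lower gene was Igf2bp3, an RNA-binding protein gene of the fetal program, at 1.91 and 0.278 FPKM, which is 6.86-fold, and after centring its log2 ratio was -0.94. It stood at 92.1% of Lin28b in expansion and 17.6% in maturation. Hmga1 was at 53.2 and 31.6 FPKM, while the let-7 targets Hmga2 at 0.319 and 0.175 and Igf2bp1 at 0.0131 and 0.00330 were below the minimum. Arid3a was at 1.16 and 0.501 FPKM, and Hic2, a repressor of Bcl11a, at 1.07 and 0.701. Zcchc11 and Zcchc6, which encode terminal uridylyl transferases that act with LIN28 on let-7 precursors, were at 1.17 and 0.6003 FPKM and at 4.35 and 3.81.

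The let-7 sequences are shown because LIN28B acts on these microRNAs and its own transcript carries sites for them. Of 12 let-7 family rows, 9 were listed at 0 in both groups, and the 3 with a value are given first, with the seed (bases 2 to 8) in capitals, from RefSeq on GRCm38.p6.
mmu-let-7d-5p, chr13:48536078-48536099, minus strand: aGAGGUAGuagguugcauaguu
mmu-let-7i-5p, chr10:122985698-122985719, minus strand: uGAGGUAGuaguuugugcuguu
mmu-miR-98-5p, chrX:151913229-151913250, plus strand: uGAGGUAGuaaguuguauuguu
All 11 family rows with a 5p arm in RefSeq share the seed GAGGUAG. Mirlet7d was at 3.42 FPKM in expansion against 1.18 in maturation, Mirlet7i was listed at 0 in expansion and at 4.45 in maturation, and Mir98 was at 0.899 and then listed at 0. FPKM of transcripts this short is unstable, and an exact 0 can be a failed estimate, so these values do not measure mature let-7. The DNA letters opposite the seed, CTACCTC, were found 4 times in the 4445-base 3′ UTR of Lin28b (exonic, GENCODE M21, GRCm38), in capitals here.
Lin28b site 1, chr10:45381022-45381044, minus strand: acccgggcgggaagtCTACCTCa
Lin28b site 2, chr10:45378648-45378670, minus strand: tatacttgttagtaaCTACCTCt
Lin28b site 3, chr10:45378476-45378498, minus strand: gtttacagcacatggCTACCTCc
Lin28b site 4, chr10:45377060-45377082, minus strand: aaatgatggcaccgaCTACCTCt
Chd4 was the other gene of the 10 with a match, 1 in a 3′ UTR of 590 bases, and the other 8 had 0. Of the 1259 3′ UTRs within 20% of the length of that of Lin28b, 23.9% held at least 1 match, and of the 2122 near the length of that of Chd4, 4.24% did. The first Lin28b site, 36 bases into the UTR, is the 1 of 4 followed by A. No binding was measured.

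Hbs1l and its neighbour Myb had different values. Hbs1l on chromosome 10 (mm9, 21015785 to 21088695) was at 10.4 FPKM in expansion against 7.82 in maturation, 1.33-fold lower, with a log2 ratio of -0.37. Myb, the progenitor transcription factor gene on the same chromosome (mm9, 20844736 to 20880790), was at 13.2 and 1.17 FPKM, which is 11.3-fold lower. Myb stood at 126% of Hbs1l in expansion and 14.9% in maturation. Ahi1, on the far side of Myb, was at 1.30 and 1.54 FPKM, and Aldh8a1, on the far side of Hbs1l, at 0.00373 and 0.00409. The partners of HBS1L in ribosome rescue and the related release factors were level as deposited. Pelo was at 2.78 and 2.79 FPKM, Abce1, which splits ribosomes, at 17.9 and 18.0, Gspt1 at 8.56 and 8.30, and Etf1 at 15.3 and 14.8. Of the 9 genes of this list 8 were expressed, and Myb was the 1 beyond 2-fold, against 6.70% of all expressed rows lower by as much. Against the median ratio of all expressed rows, 6 of the 8 lay above it and 2, Hbs1l and Myb, below. The antisense gene 4930455C13Rik shares 266 exon bases with Hbs1l in the GENCODE annotation.

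Other enzymes tied to fetal globin silencing were mixed. Of 14 genes, 12 were expressed, 1 stood higher by 2-fold or more and 1 lower by as much, against 3.13% and 6.70% of all expressed rows, and the median log2 ratio was -0.17. Uhrf1, which guides DNMT1 to replicated DNA, was at 9.08 and 21.7 FPKM. Ehmt2, the H3K9 methyltransferase G9a, was at 6.43 and 1.83 FPKM, and its partner Ehmt1 at 2.06 and 1.07. Ezh2 was at 6.49 and 9.43 FPKM and Eed, another Polycomb subunit, at 6.77 and 4.26. Smarca5, a chromatin remodelling ATPase, was at 9.55 and 11.2 FPKM.

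Among factors that act with or upstream of the repressors, several were beyond 2-fold. All 11 were expressed, with 3 higher by 2-fold or more and 2 lower by as much, and after centring 5 were higher and 2 lower. The shares of all expressed rows were 3.13% higher and 6.70% lower, and after centring 4.53% and 3.92%. Tal1 was at 7.67 and 21.1 FPKM, and Zfpm1, which encodes the GATA1 cofactor FOG1 that binds NuRD, at 10.2 and 21.8. Klf1, an activator of Bcl11a and Zbtb7a, stood at 2.48 times the Bcl11a level in expansion and 5.33 times in maturation. The 2 lower genes were Myb and Cbfb. The list was put together with earlier results of these data known.

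The globin genes stood over 4-fold higher in maturation, embryonic and adult rows alike. Hbb-y was at 102 FPKM in expansion against 465 in maturation, and Hba-x at 37.2 and 154, while Hbb-b1 was at 1059 and 4739. The Hbb-y level was 9.66% of that of Hbb-b1 in expansion against 9.80% in maturation, and Hba-x was at 1.91% and 1.84% of Hba-a1. These percentages are not shares of all adult globin, because Hba-a2, at 1929 and 8276 FPKM, and the row of Hbb-bs are left out. The embryonic row Hbb-bh1 was at 123 and 544 FPKM, and Gm5736, the row of Hbb-bh2, at 87.5 and 390. The listed Hbb-bh1 locus (mm9, 110967782 to 110991676) is far longer than that of Hbb-y (111000268 to 111001721). Other rows within the Hbb-bh1 locus were not searched for. Whether reads were divided between globin rows was not tested. The windows of the embryonic genes Hbb-y and Hba-x, which hold TGACCA, are shown with that of the adult gene Hbb-bs, which does not. The row of Hbb-bs is LOC100503605 at 996 and 4390 FPKM. Capitals and build are as for the windows above.
Hbb-y, chr7:103853208-103853457, minus strand: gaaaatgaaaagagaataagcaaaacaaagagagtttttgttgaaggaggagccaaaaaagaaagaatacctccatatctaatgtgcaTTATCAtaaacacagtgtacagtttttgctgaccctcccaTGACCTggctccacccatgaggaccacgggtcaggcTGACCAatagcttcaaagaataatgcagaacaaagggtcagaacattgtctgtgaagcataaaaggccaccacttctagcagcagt
Hba-x, chr11:32276350-32276599, plus strand: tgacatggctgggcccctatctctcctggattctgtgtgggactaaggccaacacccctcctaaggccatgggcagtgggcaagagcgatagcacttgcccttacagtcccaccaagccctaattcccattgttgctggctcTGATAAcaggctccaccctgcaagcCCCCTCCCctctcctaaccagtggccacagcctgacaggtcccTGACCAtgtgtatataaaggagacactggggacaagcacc
Hbb-bs, chr7:103827929-103828178, minus strand: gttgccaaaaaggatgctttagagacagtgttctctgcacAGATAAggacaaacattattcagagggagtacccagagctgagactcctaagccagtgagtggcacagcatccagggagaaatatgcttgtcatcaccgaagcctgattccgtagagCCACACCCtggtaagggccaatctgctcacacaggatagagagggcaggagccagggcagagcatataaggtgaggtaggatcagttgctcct
TGACCA stood 86 bases before the Hbb-y start and 40 bases before the Hba-x start, and AGGTCA, read on the other strand as TGACCT, 122 bases before the Hbb-y start. The windows of Hbb-bs, Hbb-bt, Hba-a1 and Hba-a2 held neither. TGACCA stood in 11.4% of all RefSeq windows, and in 2 of these 6 globin windows, which were chosen for their genes. Hbb-bh1 had no window in the table used here.

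**Figure D4:**
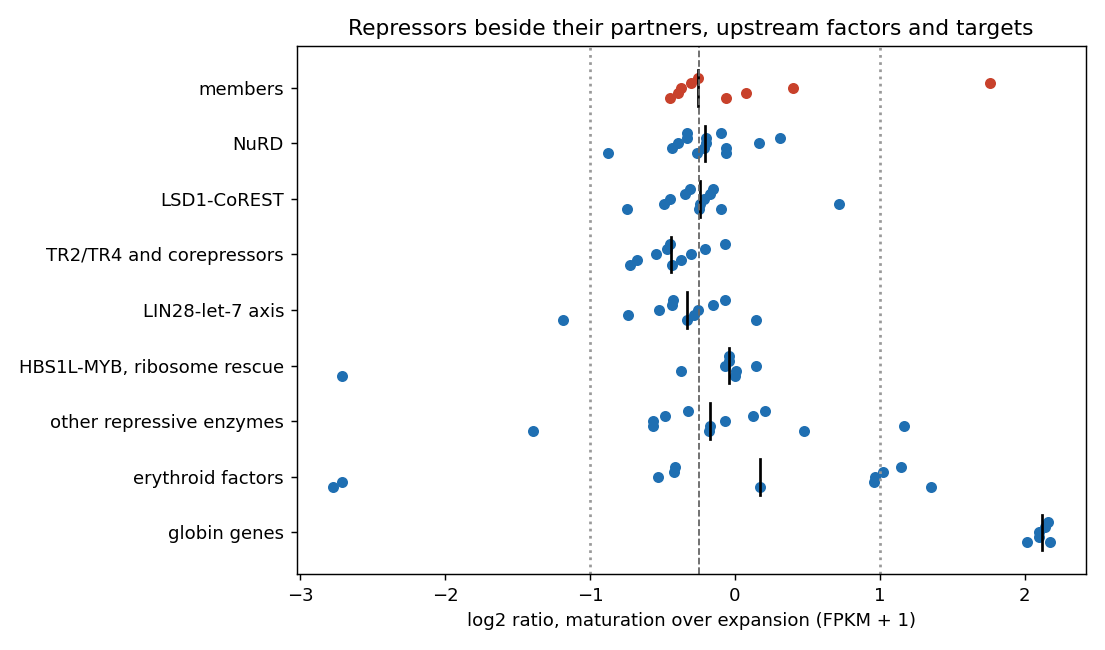
Log2 ratios of maturation over expansion for the expressed genes of each list, 1 point per gene, with a black bar at each list median, a dashed line at the median of all expressed rows (-0.25) and dotted lines at -1 and 1. The repressors and cofactors (red, row labelled members) lie between -0.45 and 0.40 except Sox6 at 1.76, and the globin genes lie from 2.02 to 2.17.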

How the data were processed

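RNA was measured in 2 groups of mouse erythroblasts, with RNA taken by a Qiagen kit and libraries made with a Nextflex kit, per the labels' protocols. The values are FPKM made by the authors and deposited as 1 table with 1 column per group, per the file headers. The submitters' processing notes name Cuffdiff 2.0.2 and mm9. The aligner, annotation and strand setting, and whether the duplicates of the series text were pooled, were not given in the sources used here. Both columns are treated as pooled values, with no SD, n or p-value.

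Ratios are log2 of maturation over expansion with a pseudocount of 1, over rows reaching 1 FPKM in either group (Python 3.11.15, pandas 2.3.3), and counts beyond 2-fold use these ratios, while folds given for single genes are ratios of FPKM. The size calls were checked on simulated maturation values set to known folds without noise, from rows at 5 FPKM or more in expansion. Such a check covers only the arithmetic of the calls, and not weakly expressed rows such as Sox6. Start positions are given counted from 1, since of 175 microRNA rows with a span within 1 base of their RefSeq length, 175 had an end minus start equal to it. Of 149 genes in 17 lists, 145 matched on their symbol, 3 on a synonym in RefSeq, and 1 (Hbb-b2) had no row. Named genes are the 10 genes, up to 4 expressed genes per list with the largest ratios, their complex partners and paralogs, globin rows, rows at the same loci and nearest rows. Other list genes, such as Ezh2, Smarca5, Gata1, Zfpm1, Nfe2, Ldb1, Ikzf1 and Hic2, were named after their values were seen. The genes and lists were chosen with earlier results of these data known. Alternatives were pseudocounts of 0.1 and 5, centring, rescaling without small RNA rows, other minimums and a 1.5-fold threshold. Promoter, microRNA and UTR sequences come from RefSeq GRCm38.p6 and GENCODE M21, whose coordinates were not joined to the mm9 table.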

Additional observations from a re-analysis of the deposited data

How the results depend on the processing

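With 1 deposited value per group no replicate could be left out. No paired analysis was possible because the table holds 1 column per group with no replicate numbers. Of the 10 ratios, that of Sox6 was the only one to move by more than 1.5-fold under another pseudocount, centring or rescaling, with a log2 ratio of 3.65 at a pseudocount of 0.1 and 0.61 at a pseudocount of 5, where the count of the 9 expressed genes at least 2-fold higher went from 1 to 0. The counts of 1 higher and 0 lower were the same with a pseudocount of 0.1, centring, rescaling and a threshold of 1.5-fold, and a minimum of 5 FPKM leaves Sox6 out. The median of the expressed genes was -0.23 with no minimum FPKM and -0.06 with a minimum of 5, beside -0.0024 and -0.21 for all rows.

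With a pseudocount of 0.1 the count at least 2-fold lower went from 0 to 1 in the NuRD list, the LSD1-CoREST list, the TR2 and TR4 list, the SOX list and the macrophage markers, and from 1 to 2 in the LIN28 and let-7 list. After centring the lower count went from 1 to 0 in the LIN28 and let-7 list and in the let-7 rows, and the higher count of the erythroid factors from 3 to 5. A lower pseudocount weights weakly expressed genes more by its construction. The other list counts kept within 1.5 times their values. The depth behind each FPKM is unknown, which limits the weakest values most, those of Sox6 in expansion and of Nr2c1.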

Other observations

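Cbfb, which encodes the shared partner subunit of the RUNX factors, had 7.25 FPKM in expansion against 0.205 in maturation, a 35.4-fold difference, while Runx1 was at 4.44 and 3.07 FPKM. No other row overlaps the Cbfb locus on chromosome 8 (mm9, 107694574 to 107741889). Cbfb was the lowest of the 11 erythroid factors at a log2 ratio of -2.78, next to Myb at -2.71. Other factors of that list lay closer to level, with Nfe2 at 14.8 and 16.9 FPKM, Ldb1 at 16.9 and 12.5, and Ikzf1, an early hematopoietic zinc finger factor, at 12.8 and 8.52.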
